A study of Mus musculus with 6 samples.

Results

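The 34 genes described here are the p53 gene Trp53, its relative Trp73, and known transcriptional targets and feedback partners of p53, among 24972 gene symbols in the table. They were chosen from general knowledge of the pathway but also selected on this contrast, because Eda2r and Abcb1b were already known to be among its largest rises, so their differences between genotypes, and which of them passed the threshold in the fit over all genes, are given as a description only and are not evidence about the list. Of the 34 genes, 33 passed the filter on low values. It asked for 10 or more normalized counts in 3 or more of the libraries, and 14456 genes passed. Trp73 was the exception, with 0, 0 and 2.3 normalized counts in the control libraries and 5.3, 0 and 7.7 in the iECKO libraries.

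RNA was sequenced from endothelial cells (ECs) isolated from lung on beads carrying an antibody to CD31, at postnatal day 7, after 100 µg of tamoxifen on postnatal days 1, 2 and 3, in 3 control and 3 Atp6ap2 iECKO libraries. The labels give all 6 a floxed allele of Atp6ap2, written PRR (Atp6ap2)fl/Y, on C57BL/6, whereas the study's methods describe a mixed background. The iECKO pups carried in addition Cdh5-CreERT2, a tamoxifen-activated Cre driven by the promoter of VE-cadherin, so that deletion was directed to ECs and other cells in the preparation kept the gene. The controls received tamoxifen but carried no Cre, so the deletion and the transgene cannot be told apart in this design. Atp6ap2 encodes an accessory subunit of the vacuolar proton pump, also called the prorenin receptor, and lies on the X chromosome.

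p53 is a transcription factor that cells stabilize after DNA damage and other stress. It binds a 20-base element made of a 10-base unit and its repeat, and induces genes of cell cycle arrest, apoptosis, DNA repair and metabolism, together with its own inhibitor Mdm2. In the absence of strong damage its targets are still transcribed at a basal level, and ECs depend on Mdm2 to hold p53 in check during vascular development. Several genes of the list also have inducers other than p53.

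The best match to the p53 element near the start of transcription is shown for genes that the results below turn on, in capitals within RefSeq sequence of GRCm38.p6, on the strand of the gene. The element was spelled with its consensus letters on both units without a spacer and reads the same on both strands. Cdkn1a, Ccng1, Gtse1, Ckap2, Trp53 and Aen show matches with 1 to 3 mismatches, and Eda2r, the gene with the largest fold change of the list, is shown for contrast.
Cdkn1a, chr17:29090908-29090967, plus strand, 1 mismatch: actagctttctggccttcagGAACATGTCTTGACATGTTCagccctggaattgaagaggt
Ccng1, chr11:40755442-40755501, minus strand, 1 mismatch: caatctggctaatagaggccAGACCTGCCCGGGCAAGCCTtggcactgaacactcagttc
Gtse1, chr15:85859940-85859969, plus strand, 1 mismatch: accggGAGCAAGTTGGGGCTTGCCTctgac
Ckap2, chr8:22185983-22186042, minus strand, 2 mismatches: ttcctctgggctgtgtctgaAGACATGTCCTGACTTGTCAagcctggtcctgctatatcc
Trp53, chr11:69580264-69580323, plus strand, 3 mismatches: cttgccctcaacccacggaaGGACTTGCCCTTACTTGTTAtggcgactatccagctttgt
Aen, chr7:78895932-78895961, plus strand, 3 mismatches: aagccGGGCTTGTCCGGGCAAGGAGcttcc
Eda2r, chrX:97377372-97377459, minus strand, 6 mismatches: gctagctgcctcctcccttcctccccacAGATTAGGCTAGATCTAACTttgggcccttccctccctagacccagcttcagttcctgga

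Windows from 250 bases before to 50 bases after the RefSeq start were read for 25 of the 34 genes. A match with at most 1 mismatch was present in 3 of the 25 (12.0%), namely Ccng1, Cdkn1a and Gtse1, and in 29 of 27025 genes with a window (0.107%). With at most 2 mismatches, Ckap2 and Trp73 joined, giving 5 of 25 (20.0%) against 254 of all genes (0.94%). With at most 3 mismatches, Abcb1b, Aen, Bax, Bbc3, Polk, Sesn1, Tigar and Trp53 joined, giving 13 of 25 (52.0%) against 1947 of all genes (7.2%). Of the tested genes with such a match, all but Sesn1 had every iECKO library above every control, a placing found in 14.7% of all genes. Sesn1 had every iECKO library below every control without passing the threshold (limma, adjusted p = 0.257). Eda2r, Gdf15 and Phlda3 were also above every control in every iECKO library, with 5 or 6 mismatches at best. The other genes with a window and more than 3 mismatches overlapped or were lower. Zmat3 and Pvt1, separate and higher too, had no window. The list was formed with this contrast known, so nothing is read from this split. A match is only a stretch of letters, and elements in introns or farther away were not searched.

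Atp6ap2 was measured at 7490, 5815 and 5681 normalized counts in the controls and at 4220, 2336 and 1982 in the iECKO libraries, a log2 fold change of -1.22 (SE 0.26, limma, adjusted p = 0.0306). It missed the threshold when any library other than iECKO 1 was left out, with adjusted p = 0.0628 to 0.103 in limma. The iECKO 1 library kept the most transcript, and no iECKO library reached a control. Deposited totals were 26359661 to 28725799 in controls and 26243878 to 27221581 in iECKO libraries after normalization. The most frequent low value of each library, taken as its step, gave a relative depth of 1.00 to 1.04 in controls and of 1.25 to 1.55 in iECKO libraries. Depth by this estimate moved with genotype. Xist, the RNA that silences an X chromosome in females, was at 37704, 44402 and 31.7 in the controls and at 39442, 19.3 and 47487 in the iECKO libraries, although fl/Y is the label of every library. The study's methods include fl/fl animals.

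The endothelial markers, led by Pecam1 and Cdh5, summed to 282950 to 360610 in controls and to 299390 to 338050 in iECKO libraries. Among 10 endothelial markers, none was higher and 1 was lower past the threshold (limma, 1 and 1 at an unadjusted p under 0.05). Over all genes tested, 3.28% were higher and 4.97% lower past the threshold, and 1671 and 1782 of 14456 at that unadjusted p. Fibroblast markers summed to 78868 to 123630 in controls and to 27013 to 39049 in iECKO libraries, with 7 of 9 tested genes lower, and Lum and Fap at 0 in at least 1 library. Mural and smooth muscle markers summed to 13589 to 20445 and to 5626 to 7146, with 7 of 10 lower. Epithelial markers (24224 to 67118 and 30297 to 36393) and leukocyte markers (5955 to 10657 and 4890 to 13986) overlapped between the genotypes, with 1 gene past the threshold, Scgb1a1, higher. The part of these shifts in the values below was not tested. In a bulk preparation, fewer cells of a type and less RNA per cell cannot be told apart.

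Of the 33 tested p53 genes, 8 were higher and 1 was lower in Atp6ap2 iECKO iLECs at an adjusted p under 0.05 (limma on log2 of the normalized count plus 1, adjusted over all genes). Over all genes tested, 3.28% were higher and 4.97% lower. All 3 iECKO libraries lay above all 3 controls for 16 of the 33 genes, against 14.7% of all genes, and below them for 4, against 15.0%, while 13 overlapped. The log2 fold change was positive for 22 of 33, with a median of 0.33, beside 7323 of 14456 and a median of 0.00 over all genes. As the list was formed with this contrast known, nothing is read from these counts. Without iECKO 2 or without iECKO 3, 1 gene of the list, Eda2r, passed the threshold, and without control 3 only Eda2r, Gdf15 and Abcb1b did. In the iECKO 1, 2 and 3 libraries, the median over the list of log2 ratios to the mean control was 0.26, 0.31 and 0.34.

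**Figure D1:**
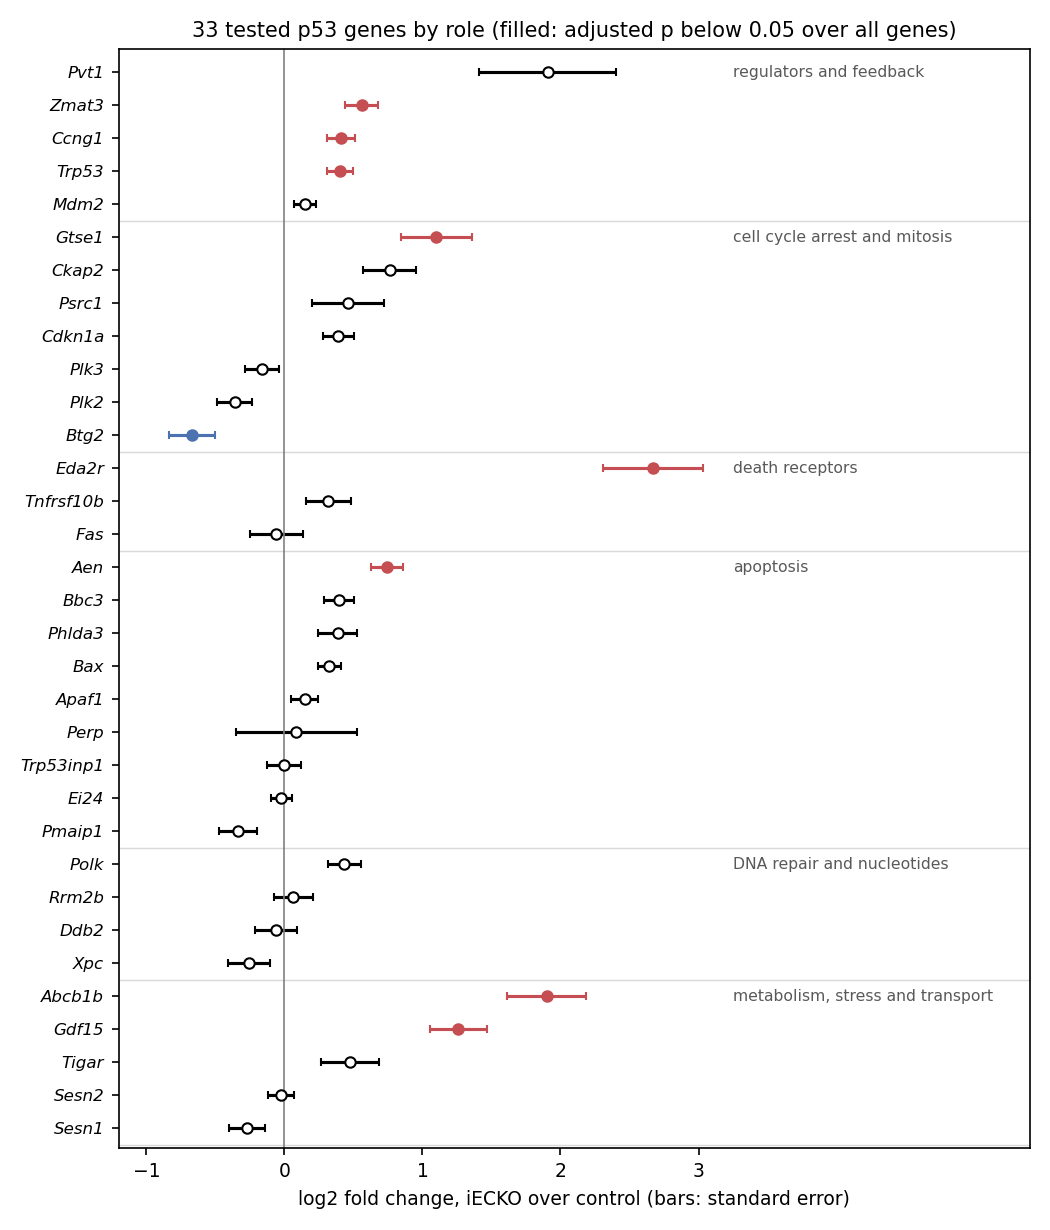
Log2 fold change, Atp6ap2 iECKO over control, of the 33 tested p53 genes ordered by role, with bars for 1 standard error and filled points for an adjusted p under 0.05. Eda2r stands at 2.67 and Btg2 at -0.67, and most other genes lie between -0.5 and 1.

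Trp53 itself (chromosome 11, 69580359 to 69591873) was at 5204, 4568 and 4464 normalized counts in the controls and 5824, 6830 and 6193 in the iECKO libraries, a log2 fold change of 0.40 (SE 0.10). The genotypes did not overlap, although the highest control and the lowest iECKO library were close. Mdm2, the ubiquitin ligase that degrades p53 and the classic feedback target, was at 2615, 2457 and 2406 against 2604, 2805 and 2877, and its groups overlapped. Its log2 fold change of 0.15 (SE 0.08) had a 95% interval of -0.03 to 0.33. Mdm4, the partner of Mdm2 that blocks the activation domain of p53, differed by 0.05 (SE 0.09, limma, adjusted p = 0.778).

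Ccng1 and Zmat3, the other protein-coding feedback genes of the list, were higher in every iECKO library than in any control. Cyclin G1, encoded by Ccng1 (chromosome 11, 40748552 to 40755311), recruits a phosphatase to Mdm2. Its values were 955, 815 and 946 in controls and 1120, 1258 and 1224 in iECKO libraries, a log2 fold change of 0.41 (SE 0.10). Zmat3 (chromosome 3, 32334792 to 32366014), a zinc finger protein that binds RNA and regulates splicing, went from 491, 575 and 489 to 681, 813 and 799, with a log2 fold change of 0.56 (SE 0.12). The long noncoding RNA Pvt1, next to Myc, was near the floor of the filter, with 12.1, 7.2 and 17.7 in controls and 33.02, 36.2 and 82.6 in iECKO libraries. Its log2 fold change of 1.91 carried the widest error of the list (SE 0.49) and did not pass the threshold, and other annotated transcripts share its exon bases. Over the 5 tested genes of this arm, 3 were higher past the threshold, against 3.28% of all genes. In 4 the groups were separate with iECKO higher, against 14.7%, and the median log2 fold change was 0.41, against 0.00. Nothing is read from these counts, since the list was formed with this contrast known.

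Cell cycle genes of the list moved in both directions. Cdkn1a encodes p21, the inhibitor of cyclin-dependent kinases through which p53 arrests cells. It was abundant, at 8378, 8938 and 7055 in controls and 11646, 9906 and 10287 in iECKO libraries. The groups were separate, with a log2 fold change of 0.39 (SE 0.11) that did not pass the threshold. Btg2 (chromosome 1, 134075170 to 134079120), an antiproliferative cofactor of mRNA deadenylation and an immediate early gene, was the only gene of the list past the threshold in the other direction. It was at 9492, 14744 and 13092 in controls and 6880, 7627 and 8689 in iECKO libraries, a log2 fold change of -0.67 (SE 0.17). Plk2 and Plk3, polo-like kinases of the stress response that are also induced by serum and cell handling, had log2 fold changes of -0.36 (SE 0.13) and -0.16 (SE 0.12). Plk2 had separate groups, with 28300, 25615 and 20655 in controls and 20133, 18013 and 19460 in iECKO libraries, and Plk3 did not.

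The remaining genes of this arm, Gtse1, Ckap2 and Psrc1, encode microtubule-binding proteins that peak in G2 and mitosis. Gtse1 (chromosome 15, 85859745 to 85876573), which also moves p53 out of the nucleus, was at 141, 288 and 171 in controls and 398, 451 and 386 in iECKO libraries, a log2 fold change of 1.10 (SE 0.26). Ckap2 was at 750, 1158 and 729 against 1538, 1641 and 1226, a log2 fold change of 0.76 (SE 0.19) that did not pass the threshold. Psrc1 overlapped, at 76.9, 147 and 96.4 against 144, 135 and 147. In all 3 genes, control 2 was the highest of the controls.

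Control 2 was also the highest control for all 13 genes of a list that p53 represses through p21 and the DREAM complex, an assembly that silences cell cycle promoters. It was the highest control for 13 of the 33 tested p53 genes, and this order was not counted over all genes. All 13 had a positive log2 fold change (median 0.92), beside 7323 of 14456 over all genes. In 8 the groups were separate with iECKO higher, against 14.7% of all genes, and 4 were higher past the threshold (limma over all genes), against 3.28%. This list too was chosen with earlier results of these data known, so nothing is read from its counts. The 4 past the threshold in limma were Cdk1, the mitotic kinase (log2 fold change 0.96, SE 0.16, adjusted p = 0.0162), Ccna2, which encodes cyclin A2 (1.06, SE 0.19, adjusted p = 0.0192), Birc5, which encodes survivin (0.92, SE 0.16, adjusted p = 0.0178), and Top2a, a DNA topoisomerase (1.00, SE 0.25, adjusted p = 0.0489). Cdkn1a and these 4 genes had their 3 iECKO libraries above the controls. The 4 were picked by the threshold, which favors separate groups, so nothing is read from that placing. Cdkn1c, which encodes the cyclin-dependent kinase inhibitor p57, fell from 1529 ± 271 to 638 ± 119 (SD, n = 3 each), a log2 fold change of -1.26 (SE 0.17, limma, adjusted p = 0.0103), as the single gene past the threshold among 5 other inhibitors.

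**Figure D2:**
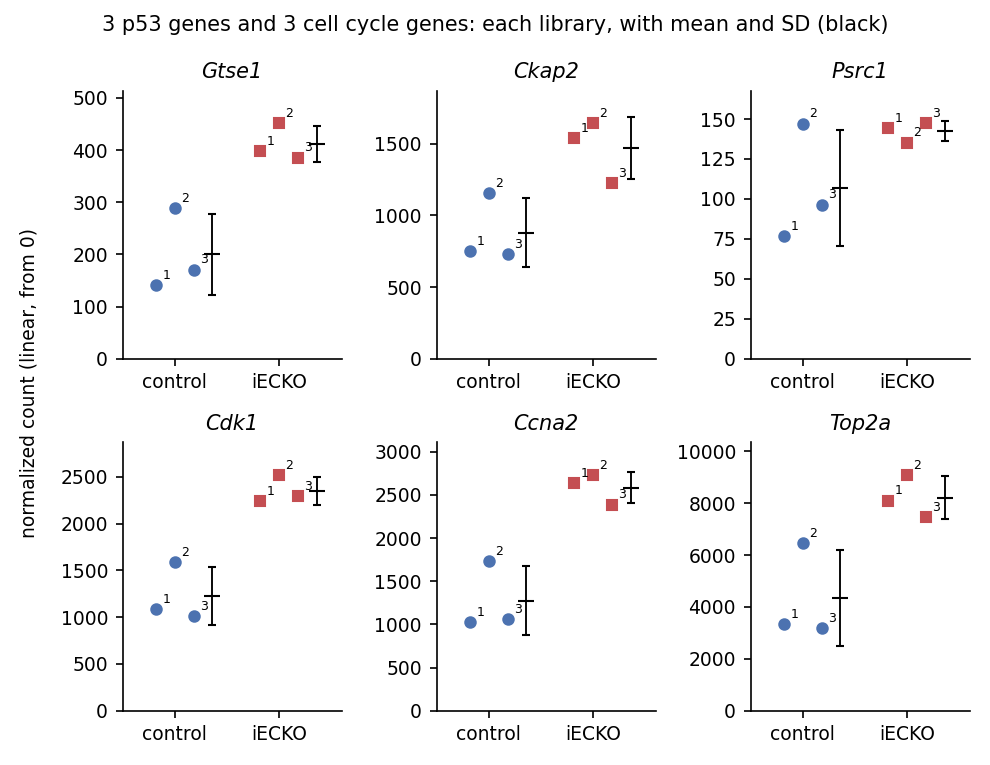
Normalized count per library, on linear axes from 0, of Gtse1, Ckap2 and Psrc1 (top) and of Cdk1, Ccna2 and Top2a (bottom), with numbered points for libraries and black marks for the mean and SD of each genotype. Control 2 is the highest control in each panel, and only in Psrc1 do the genotypes overlap.

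Eda2r (chromosome X, 97333840 to 97377216, minus strand) had the largest log2 fold change of the list. It encodes a receptor of the tumor necrosis factor receptor family, also called XEDAR, that binds the A2 form of ectodysplasin. It was at 97.5, 47.3 and 40.1 normalized counts in the controls and at 264, 442 and 428 in the iECKO libraries, with means of 61.6 ± 31.3 and 378 ± 99.0 (SD, n = 3 each). Control 1 was the highest control and iECKO 1 the lowest iECKO library, and the genotypes were far from overlapping. The log2 fold change was 2.67 (SE 0.36, 95% interval 1.84 to 3.50), which ranked 13th from the top of all genes tested. With libraries compared at like Xist, the log2 difference was 2.29 among those with it and 3.43 among those without.

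The ligand gene Eda was low in both genotypes, with 34.7, 55.9 and 79.5 in controls and 26.1, 40.6 and 31.7 in iECKO libraries (log2 fold change -0.72, SE 0.38, limma, adjusted p = 0.296). Edar, the receptor for the A1 form of ectodysplasin, was at 16.1, 9.3 and 20.3 against 7.5, 16.6 and 3.7 (log2 fold change -0.80, SE 0.60, adjusted p = 0.473). In the other death receptors of the list the genotypes overlapped. Fas was at 1216, 707 and 1015 in controls and 943, 812 and 1010 in iECKO libraries, a log2 fold change of -0.06 (SE 0.19, 95% interval -0.50 to 0.39). Tnfrsf10b, the receptor for the ligand TRAIL in mice, was at 2947, 1921 and 1952 against 2593, 2730 and 3029, a log2 fold change of 0.32 (SE 0.16), and control 1 lay among the iECKO libraries. Of 13 tested partners of death receptors (ligands, adaptors and inhibitors), none passed the threshold in limma in either direction, and 2 were higher and 1 lower at an unadjusted p under 0.05. Over all genes tested, 3.28% were higher and 4.97% lower past the threshold, and 1671 and 1782 of 14456 at that unadjusted p.

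**Figure D3:**
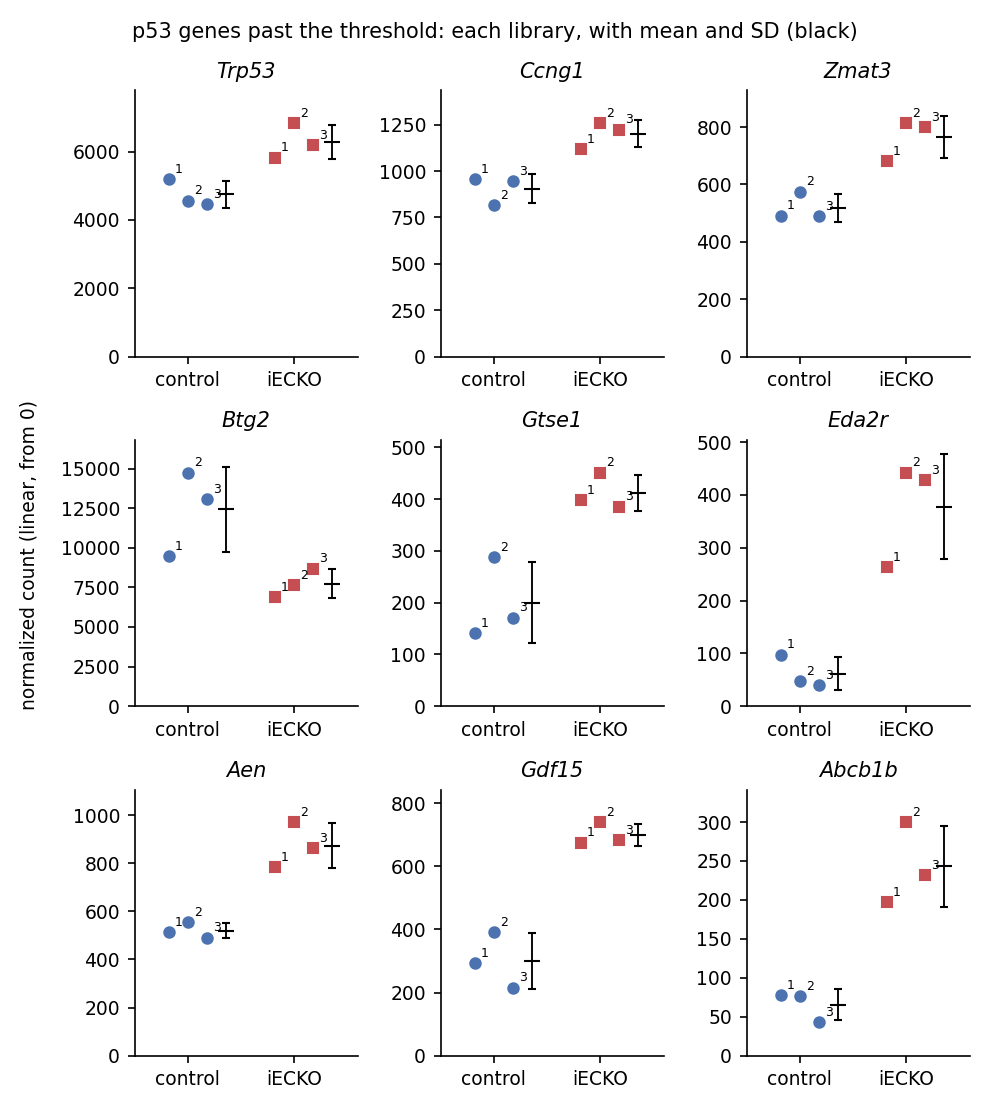
Normalized count per library, on linear axes from 0, of the 9 p53 genes past the threshold, with numbered points for libraries and black marks for the mean and SD of each genotype. All but Btg2 have the 3 iECKO libraries above the 3 controls, and in Eda2r the lowest iECKO value is 264 and the highest control value 97.5.

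Among 9 apoptosis genes, 1 was higher past the threshold, against 3.28% of all genes. Aen (chromosome 7, 78895854 to 78911209), an exonuclease that degrades DNA and RNA in apoptotic cells, was at 515, 554 and 491 in controls and 785, 970 and 862 in iECKO libraries. Its log2 fold change was 0.74 (SE 0.12), and its values were tight within each genotype. The pore-forming protein gene Bax and the BH3-only gene Bbc3, which encodes Puma, both had separate groups without passing. Bax was at 882, 860 and 918 against 1142, 1101 and 1090, a log2 fold change of 0.33 (SE 0.08). Bbc3 was at 1177, 1162 and 1190 against 1329, 1686 and 1651, a log2 fold change of 0.39 (SE 0.11).

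Phlda3, a repressor of Akt, was also separate, at 724, 795 and 686 in controls and 877, 1173 and 857 in iECKO libraries, with a log2 fold change of 0.39 (SE 0.14). Pmaip1, which encodes the BH3-only protein Noxa, was separate in the other direction, at 590, 611 and 573 in controls and 500, 390 and 523 in iECKO libraries, a log2 fold change of -0.34 (SE 0.14). Bbc3 and Pmaip1, the BH3-only genes of the list, thus had fold changes of opposite sign. Apaf1, the scaffold of the apoptosome, had a log2 fold change of 0.15 (SE 0.10), and Ei24, an endoplasmic reticulum protein, and Trp53inp1, which promotes phosphorylation of p53, had values of -0.02 (SE 0.08) and -0.00 (SE 0.13). Perp, a tetraspan membrane protein of epithelial junctions, was low, at 27.1 to 67.3 in controls and 27.3 to 53.3 in iECKO libraries. The median log2 fold change of the apoptosis genes was 0.15.

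Among 16 other BCL-2 family and caspase genes, Bid, which links death receptors to mitochondria, rose from 80.6 ± 12.7 to 194 ± 37.5 (SD, n = 3 each), a log2 fold change of 1.25 (SE 0.23, limma, adjusted p = 0.0197).

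None of the 4 repair and nucleotide genes passed the threshold in limma, 1 was higher at an unadjusted p under 0.05, and their median log2 fold change was 0.00. Over all genes tested, 3.28% were higher and 4.97% lower past the threshold, and 1671 and 1782 of 14456 at that unadjusted p. Nothing is read from the counts of 4 genes. Of the 4, only Polk, a translesion DNA polymerase, had separate groups. It was at 464, 407 and 380 in controls and 541, 569 and 575 in iECKO libraries (log2 fold change 0.43, SE 0.12). Ddb2 and Xpc, which recognize damage for nucleotide excision repair, had log2 fold changes of -0.06 (SE 0.15) and -0.26 (SE 0.15). Rrm2b encodes the p53-inducible small subunit of ribonucleotide reductase, the enzyme that makes deoxynucleotides. It was at 702, 504 and 549 against 637, 592 and 589, a log2 fold change of 0.06 (SE 0.14, 95% interval -0.26 to 0.39).

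The S-phase small subunit gene Rrm2 rose from 1482 ± 607 to 3138 ± 293 (SD, n = 3 each), a log2 fold change of 1.15 (SE 0.24, limma, adjusted p = 0.0299). The large subunit gene Rrm1 rose by 0.89 (SE 0.17, limma, adjusted p = 0.0232). The difference between the subunits Rrm2 and Rrm2b was not itself tested. Of 10 other nucleotide excision repair genes, Rpa1, a subunit of the single-stranded DNA binding complex that also serves replication, rose by 0.49 (SE 0.11, limma, adjusted p = 0.0335).

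Gdf15 and Abcb1b, in the arm of metabolism, stress and transport, passed the threshold. Gdf15 (chromosome 8, 70629393 to 70632456), a secreted stress cytokine that the integrated stress response also induces, was at 292, 392 and 215 in controls and 675, 739 and 683 in iECKO libraries. Its log2 fold change was 1.26 (SE 0.21). Abcb1b (chromosome 5, 8798147 to 8866315) encodes a form of the drug efflux pump P-glycoprotein. It was at 77.7, 76.0 and 43.2 in controls and 197, 300 and 232 in iECKO libraries, a log2 fold change of 1.90 (SE 0.29).

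Its close paralog Abcb1a, the main form in mouse brain ECs, was far more abundant and went the other way, at 4508, 4339 and 4221 against 2966, 3462 and 3191 (log2 fold change -0.44, SE 0.08, limma, adjusted p = 0.0215). How reads common to the paralogs were assigned is not given in the sources used here, so the value of Abcb1b is uncertain, and Gm5106 shares exon bases with it. Sesn1 and Sesn2, sestrins that restrain mTORC1, had log2 fold changes of -0.27 (SE 0.13) and -0.02 (SE 0.09). Sesn1 was separate and lower, at 833, 785 and 1062 in controls and 705, 716 and 781 in iECKO libraries. Tigar, a phosphatase that slows glycolysis, was at 120, 187 and 127 against 195, 206 and 193, separate by a narrow margin (log2 fold change 0.48, SE 0.21). Other annotated genes share exon bases with Tigar and likewise with Cdkn1a, Bax, Ei24, Rrm2b, Ddb2 and Plk3, and reads of a kit without strand cannot be told apart there.

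**Figure D4:**
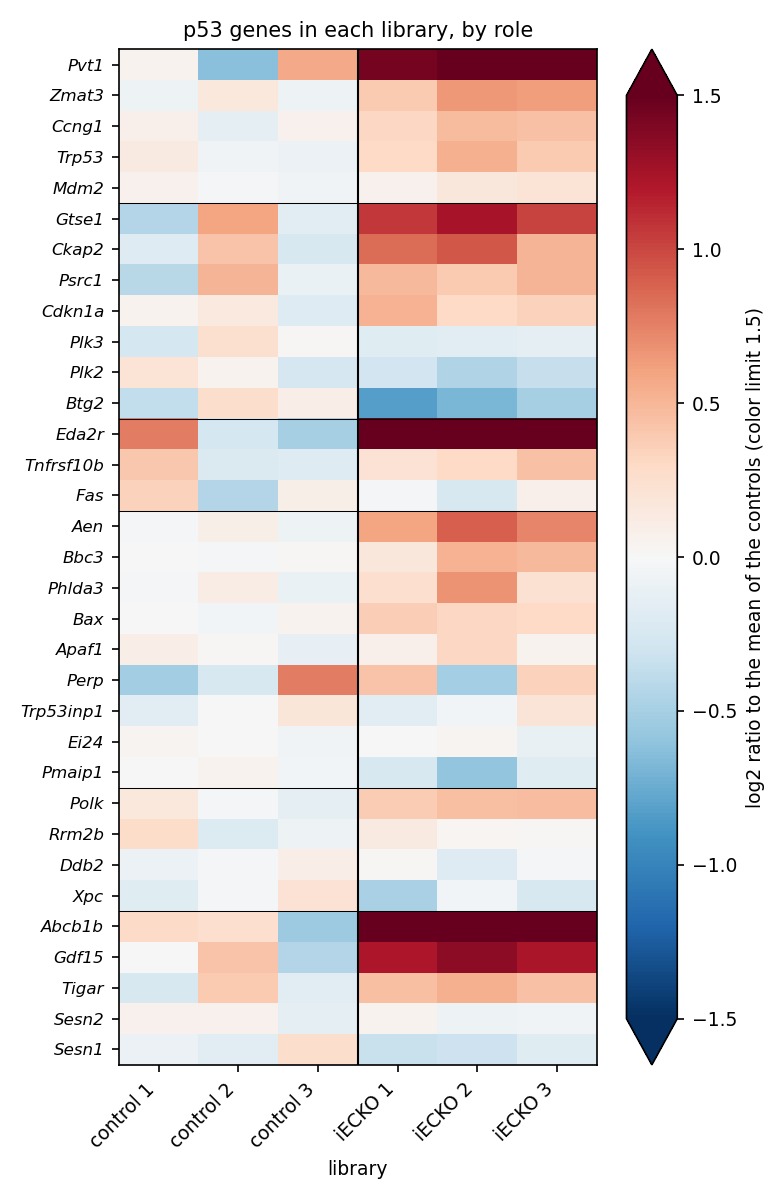
Log2 ratio of each library to the mean of the controls (color, limits at 1.5) for the 33 tested p53 genes (rows, by role) in the 6 libraries (columns). The iECKO columns hold most of the high ratios, led by Eda2r, Abcb1b and Pvt1, and Btg2 is low in all 3.

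Within the iECKO group, iECKO 1 was the lowest library for 17 of the 33 genes and iECKO 2 the highest for 15. iECKO 1 was also the library that kept the most Atp6ap2 transcript, and with 3 libraries no relation between these values was tested. Within the controls, control 3 was the lowest for 16 of 33. The same orders were not counted over all genes, so nothing particular to the list is read from them. Control 3 and iECKO 2 were the libraries in which Xist was nearly absent. The 9 genes past the threshold had separate groups, so their direction at like Xist was fixed in advance and only the sizes are given. For Trp53 the log2 difference was 0.30 with Xist and 0.61 without, for Aen 0.62 and 0.98, for Gdf15 1.00 and 1.78, and for Abcb1b 1.47 and 2.76, whereas Ccng1 was at 0.41 in both. The comparison without Xist rests on 1 library of each genotype, and the difference between the comparisons was not tested.

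The other lists were also chosen with earlier results of these data known, so nothing is read from their counts. Of 25 other tested genes known as p53 targets, outside the 34, 3 were higher and 1 lower, against 3.28% and 4.97% of all genes, with a median log2 fold change of 0.06 (limma over all genes). Sulf2, an endosulfatase that edits heparan sulfate, rose from 300 ± 50.3 to 676 ± 77.1 (SD, n = 3 each), a log2 fold change of 1.18 (SE 0.16, adjusted p = 0.0103). Pidd1, the core of the PIDDosome, rose by 1.21 (SE 0.27, adjusted p = 0.0354), and Rps27l, a ribosomal protein paralog, by 0.40 (SE 0.09, adjusted p = 0.0397). Thbs1, which encodes the angiogenesis inhibitor thrombospondin 1, fell by 1.48 on the log2 scale (SE 0.20, adjusted p = 0.0103). Among 15 tested regulators of p53, the DNA damage kinase gene Atm was the single one past the threshold, with a log2 fold change of 0.59 (SE 0.13, adjusted p = 0.0317). Over the 8 lists of other pathway genes, 12 of 99 tested were higher and 3 lower, beside the same 3.28% and 4.97% of all genes. The 12 held the 4 genes repressed through DREAM, together with Rrm1 and Rrm2. The count thus pools genes that p53 induces with genes that it represses. With single libraries left out, the number higher over the 8 lists ran from 1, without iECKO 2 or without iECKO 3, to 19, without control 2. It was 2 without control 3 and 7 without control 1.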

How the data were processed

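The deposited table holds 24972 symbols in 6 libraries. RNA from CD31+ lung cells was prepared with a TruSeq v2 kit, which does not mark strand, and sequenced by the authors, and per the labels the reads were processed with BaseSpace RNA-Seq Alignment 2.0.1 and RNA-Seq Differential Expression 1.0.1 on mm10; the gene annotation is not given in the sources used here. Per the labels the values are raw counts, but the deposited signal is not whole and its median ratio to the geometric mean is 1.0036 in every library, so the authors' values are normalized, absolute read depth is unknown and no count test was run. log2(value + 1) was fitted with limma 3.58.1 (R 4.3.3) with a mean-variance trend on genes of at least 10 in at least 3 libraries. P-values were adjusted by Benjamini-Hochberg over the 14456 genes, with a threshold of 0.05. Fold changes understate differences of low genes. The study calls the libraries biological replicates.

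The 34 genes and all lists were chosen with earlier results of these data known. All 34 were named, and of other lists at most the 4 largest past the threshold in each direction, plus Mdm4, Eda, Edar, Rrm1 and Rrm2. A gene that this rule would name is not reported here. Abcb1a was added after its values were seen. Gene positions are from GENCODE vM21 and promoters from RefSeq (GRCm38.p6). The fit was tested on simulated data. Deviations from group means correlated at 0.252, 0.114 and 0.078 in same-numbered pairs. Alternatives covered the pseudocount, filter, scaling, trend, replicate number, Xist, threshold and each library left out.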

Additional observations from a re-analysis of the deposited data

How the results depend on the processing

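The values below describe a list formed with this contrast known. The 9 p53 genes past the threshold had the same direction in all 16 alternative fits. Their groups were separate, so leaving libraries out could not reverse it. Eda2r passed in 15 of them, with a log2 fold change of 2.29 to 3.05, Abcb1b in 13, Aen and Gdf15 in 12, Trp53 and Zmat3 in 9, Gtse1 in 8, and Ccng1 and Btg2 in 5. Of 526 alternative values of single p53 genes, 522 moved by less than 1 SD. The filter, trend, replicate block and Xist covariate left the fold change of a tested gene as it was. Many of the 526 values therefore could not move, and their number is no measure of stability. The cause of the changes below was not tested, and 3 libraries a genotype limit every count.

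With each library left out in turn, 1 to 7 p53 genes were higher and 0 to 1 lower, 1 to 19 other pathway genes were higher, 28 to 460 of all genes were higher and 178 to 658 lower, and the log2 fold change of Atp6ap2 was -1.54 to -0.999. Without iECKO 2 or iECKO 3, only Eda2r passed among the p53 genes, and without control 3 only Eda2r, Gdf15 and Abcb1b. Atp6ap2 itself passed only without iECKO 1 in these 6 fits.

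Without the mean-variance trend, 3 p53 genes (Eda2r, Aen and Abcb1b) were higher and 0 lower, with 2 other pathway genes and 69 of all genes higher and 235 lower, and Atp6ap2 at -1.22 missed the threshold. With Xist as a covariate, 4 p53 genes were higher and 0 lower, with 7 other pathway genes and 248 of all genes higher, and 519 of all genes lower. At an adjusted p under 0.01, 0 p53 genes were higher or lower in limma (15 and 3 at an unadjusted p under 0.05), 0 other pathway genes passed in either direction (30 and 6 unadjusted), and 8 of all genes were higher and 82 lower. Of all 14456 genes tested, 1671 were higher and 1782 lower at an unadjusted p under 0.05 in limma. At 0.10, 14 p53 genes were higher and 1 lower, 19 other pathway genes were higher and 4 lower, and 908 of all genes were higher and 1079 lower. Btg2 lost its call, leaving 0 lower, without the filter and with scaling by total or by upper quartile (limma, 3, 2 and 3 p53 genes lower at an unadjusted p under 0.05). Over all genes, 1905, 1476 and 1747 were lower at that unadjusted p in these fits.

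In a fit chosen after seeing the data, on only the 4 libraries with Xist, limma called 0 genes in either direction (986 higher and 1210 lower at an unadjusted p under 0.05, with 12 and 2 among the p53 genes and 12 and 5 among other pathway genes), and Atp6ap2 was at -1.19. The correlations in same-numbered libraries were not all above 0.1, so the numbers were not taken to pair the libraries. Differently numbered libraries correlated at -0.208 to 0.1, and whether the libraries were paired was not settled. With the replicate block, 9 p53 genes were higher and 1 lower, Pvt1 and Ckap2 gaining and Ccng1 losing the call, and 19 other pathway genes were higher. Calls over all genes also rose in that fit, to 670 higher and 838 lower, from 474 and 719 in the main fit.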
